A study of Mus musculus with 3 samples.

Results

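The genes described here are 6 leukocyte adhesion molecules, *Icam1*, *Icam2*, *Vcam1*, *Selp*, *Sele* and *Selplg*, in the lung of the healthy neonatal mouse at postnatal day 14 (P14). They are defined by gene symbol and not by a cut on a measured value, but were chosen with earlier results of these data known. They are 6 of the 28692 genes in the count matrices, in which each symbol occurred once. Whole lungs of 3 wild-type C57BL/6 pups, kept in room air (RA) from day 1 to day 14 of life, were dissociated and profiled by single-cell RNA sequencing (scRNA-Seq) with droplet-based 3′ chemistry, 1 library per mouse. The pups carry the labels mouse 2, mouse 3 and mouse 4, all belong to the same RA group, and carried no transgene or treatment, so every comparison below is between cell types within these 3 lungs.

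Leukocytes leave the blood in steps that use different adhesion molecules. Selectins on the vessel wall (P-selectin, encoded by *Selp*, and E-selectin, encoded by *Sele*) slow leukocytes in flow by binding glycosylated ligands such as PSGL-1, the product of *Selplg*, and P-selectin is also stored in platelets. The immunoglobulin-type ligands ICAM-1, ICAM-2 and VCAM-1 (*Icam1*, *Icam2* and *Vcam1*) then hold the cell by its integrins, LFA-1 (*Itgal* with *Itgb2*) for the ICAMs and VLA-4 (*Itga4* with *Itgb1*) for VCAM-1, and in many vessels *Icam1*, *Vcam1*, *Selp* and *Sele* respond to inflammatory cytokines through NF-kB.

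The 6 genes lie on 5 chromosomes of GRCm38 (GENCODE M21 annotation). *Icam1* spans chr9:21015985-21028817 on the plus strand, *Icam2* chr11:106377656-106388075 on the minus strand, *Vcam1* chr3:116109949-116129688 on the minus strand and *Selplg* chr5:113818536-113832644 on the minus strand. *Sele* (chr1:164048234-164057677) and *Selp* (chr1:164115264-164150026) share the plus strand of chromosome 1, 57586 bp apart. The promoters of 3 of the 6 members were matched in the RefSeq table (GRCm38.p6, plus strand, 250 bases before and 50 after the RefSeq gene start). The RefSeq starts of *Selp* and *Sele* are the starts given above, and that of *Icam1*, at base 21015940, lies 45 bases before the GENCODE start. They are printed because the neighbouring selectin genes gave very different UMI counts in these lungs and because all 3 genes are known cytokine-responsive genes. Capitals mark matches, on either strand, to the NF-kB-type motif GGNNNTTCC and to TATAAA; both motifs were chosen after the sequences had been seen.
Icam1, chr9:21015690-21015989: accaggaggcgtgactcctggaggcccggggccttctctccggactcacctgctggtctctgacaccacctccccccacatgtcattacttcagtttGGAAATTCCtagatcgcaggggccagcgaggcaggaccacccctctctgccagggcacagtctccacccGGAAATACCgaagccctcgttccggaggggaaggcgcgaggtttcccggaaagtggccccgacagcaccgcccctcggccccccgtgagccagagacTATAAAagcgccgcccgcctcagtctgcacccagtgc
Selp, chr1:164115014-164115313: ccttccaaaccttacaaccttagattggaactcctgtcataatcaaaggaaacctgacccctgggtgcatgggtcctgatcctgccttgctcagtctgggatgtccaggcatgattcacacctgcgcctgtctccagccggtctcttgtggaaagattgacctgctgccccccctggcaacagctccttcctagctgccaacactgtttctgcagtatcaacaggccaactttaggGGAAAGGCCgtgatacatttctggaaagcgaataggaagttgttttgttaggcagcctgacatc
Sele, chr1:164047984-164048283: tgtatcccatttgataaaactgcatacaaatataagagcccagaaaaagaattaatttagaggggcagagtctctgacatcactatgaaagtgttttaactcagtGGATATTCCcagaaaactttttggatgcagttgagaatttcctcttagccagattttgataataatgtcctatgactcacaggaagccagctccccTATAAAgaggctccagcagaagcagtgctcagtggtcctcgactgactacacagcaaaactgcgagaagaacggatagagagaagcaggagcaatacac
The *Icam1* window held the NF-kB-type motif 153 and 84 bases before the RefSeq start and TATAAA at base 14 after it, which are 198, 129 and 32 bases before the GENCODE start. The *Sele* window held GGATATTCC 145 bases before the start and TATAAA 49 bases before it, and the *Selp* window held the reverse form GGAAAGGCC 14 bases before the start and no TATAAA. The NF-kB-type motif was present in 18.5% and TATAAA in 13.6% of the 32851 promoter windows of the same length, and a match is a description of the letters only.

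After filtering, 7642 cells remained of 9644 barcodes (2386, 2601 and 2655 cells for mice 2, 3 and 4, with 22300042, 20804836 and 23442355 unique molecular identifiers, UMIs, each standing for a captured RNA molecule). The series' own text gives 5677 cells. Clusters were named from marker genes into 22 types ("-like" below, since no annotation was used from the authors), which held 6690 cells; 786 cells were left unnamed and 166 endothelial cells (ECs) were given no subtype. The 4 EC subtypes were the *Aplnr*-type capillary-like (432 cells, general capillary markers), *Car4*-type capillary-like (93 cells, the alveolar capillary type also known as aerocytes), arterial-like (159 cells) and venous-like (108 cells) ECs, and 8 of 8 venous, 6 of 6 arterial, 7 of 7 *Car4*-type and 5 of 6 *Aplnr*-type markers were detected in at least 10% of the cells so named. Kept barcodes shared between libraries numbered 8.

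Levels are given in CPM, the UMIs of a gene scaled so that all UMIs of a type in a mouse add up to the usual fixed total, for mice 2, 3 and 4 in that order, and they are compared between cell types, never between genes. Adjusted p-values are from edgeR's quasi-likelihood test on the summed counts of each mouse and type, with Benjamini-Hochberg adjustment over all genes tested. Differences are log2 fold changes with an approximate standard error (SE). It was derived as the size of the fold change divided by the square root of the test's F statistic. The adjusted p-values rest on a spread between mice within types that is pooled over all types of a fit and moderated across genes. They do not measure the spread of a single type. Each type entered with 3 mice, except basophil-like cells, which entered with mice 3 and 4. Since the types were clustered from the same cells (with the 6 members kept out of the clustering genes), they are not tests on independently labelled cells. Fewer cells expressing a gene and less RNA per cell cannot be told apart in such sums, so the share of cells with at least 1 UMI is given further on.

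The members differed in where most of their UMIs lay. ECs made up 12.5% of the kept cells and held 80.3% of the 7172 *Icam2* UMIs and 83.0% of the 282 *Selp* UMIs, but 12.8% of the 5970 *Icam1* UMIs and 25.7% of the 1627 *Vcam1* UMIs. Epithelial cells held 71.6% of *Icam1*, stromal cells 70.2% of *Vcam1* and immune cells 94.7% of the 3854 *Selplg* UMIs. *Sele* was close to absent, with 14 UMIs in 5 cells. Among the 22 types, *Icam1* had no UMI in 1 type and *Icam2* in 1 (platelet-like cells for both), *Selplg* in 2, *Vcam1* in 8, *Selp* in 10 and *Sele* in 20.

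**Figure D1:**
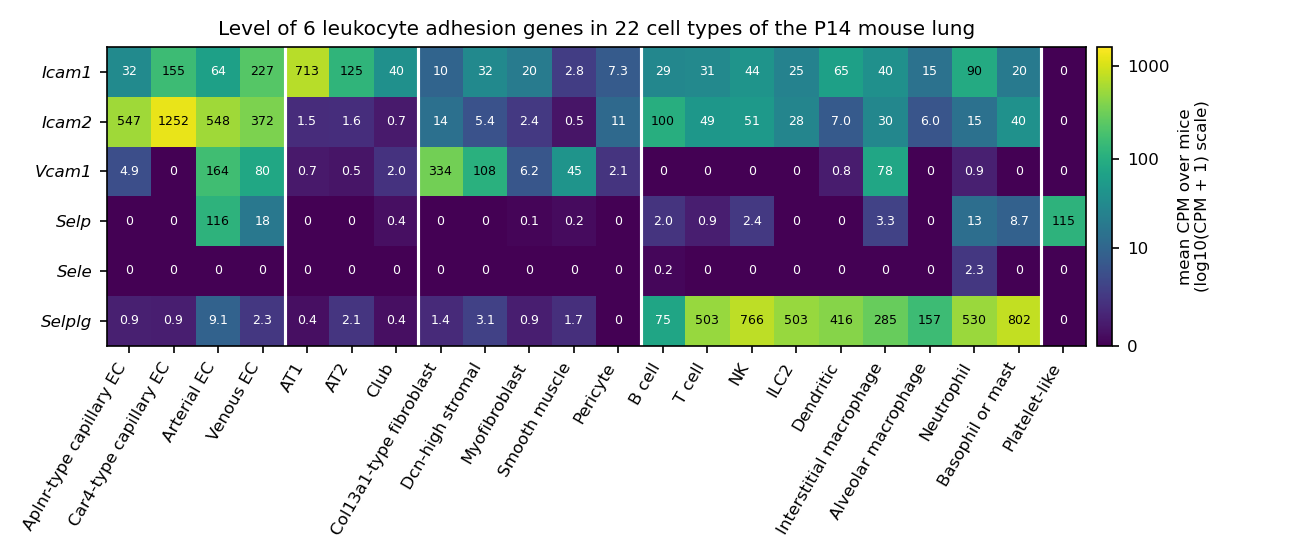
Heat map of the mean level (CPM over 3 mice, printed in each field and coloured by log10 of CPM + 1) of the 6 genes (rows) in the 22 named types (columns). The leading type differs by row, where platelet-like cells overlapped arterial-like ECs for *Selp* and NK-like cells overlapped basophil-like cells for *Selplg*: *Icam1* reached 713 CPM in AT1-like cells, *Icam2* 1252 in *Car4*-type ECs, *Vcam1* 334 in *Col13a1*-type fibroblast-like cells, *Selp* 116 in arterial-like ECs and *Selplg* 802 in basophil-like cells.

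ECs as a class were compared with the epithelial, immune and stromal classes, to ask which members mark the vessel wall. Of the 5 members with enough counts to be tested, 4 passed the threshold of 0.05 against epithelial cells (background 66.2% of 14213 genes), 5 against immune cells (background 69.4%) and 3 against stromal cells (background 55.7%). With more than 55% of all genes called, these counts are near what the background gives, and a share near the background is not a result about the members; the values of each gene follow.

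*Icam2*, an ICAM made constitutively by endothelium, stood at 618, 608 and 571 CPM in ECs. It stood at 67.6, 71.6 and 60.8 CPM in immune cells, at 3.17, 6.94 and 3.00 CPM in stromal cells and at 0.952, 0.733 and 2.86 CPM in epithelial cells. All 3 EC values lay above all values of the other classes. The log2 differences were 2.91 (SE 0.16, edgeR adjusted p = 3.27e-10) against immune, 7.02 (SE 0.22, adjusted p = 1.59e-12) against stromal and 8.02 (SE 0.24, adjusted p = 5.87e-13) against epithelial cells.

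*Icam1* was not highest in ECs. It stood at 193, 160 and 203 CPM in epithelial cells and at 76.8, 105 and 63.9 CPM in ECs. Immune cells had 37.9, 37.5 and 41.6 CPM and stromal cells 15.7, 14.7 and 15.6 CPM. The 4 classes did not overlap. ECs were lower than epithelial cells by a log2 difference of -1.69 (SE 0.14, edgeR adjusted p = 5.16e-08), higher than immune cells by 0.81 (SE 0.16, adjusted p = 0.000374) and higher than stromal cells by 2.29 (SE 0.17, adjusted p = 2.39e-08).

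*Vcam1*, the inducible VLA-4 ligand, stood at 66.1, 76.3 and 55.0 CPM in stromal cells and at 26.1, 71.8 and 39.6 CPM in ECs. These ranges overlapped, with mouse 3 the highest in both classes, and the log2 difference of -0.67 (SE 0.29) missed the threshold (edgeR adjusted p = 0.0599). It passed with the mouse as a block (-0.71, adjusted p = 0.0109), with no filter on low counts (-0.69, adjusted p = 0.0230) and without mouse 3 (-0.99, adjusted p = 0.00577). Immune cells (0.291, 3.28 and 2.74 CPM) and epithelial cells (0, 1.10 and 0.916 CPM) lay below both, and ECs exceeded them by log2 differences of 3.98 (SE 0.48, adjusted p = 2.82e-06) and 5.63 (SE 0.55, adjusted p = 2.93e-07).

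*Selp* stood at 16.7, 35.9 and 23.2 CPM in ECs and at 3.21, 2.81 and 1.74 CPM in immune cells, which did not overlap (log2 difference 3.01, SE 0.34, edgeR adjusted p = 1.26e-06). Epithelial cells gave 1 *Selp* UMI in all and stromal cells 2, and ECs passed the test against both (adjusted p = 5.99e-09 and 9.73e-09). ECs held 234 *Selp* UMIs and immune cells 36, so the gene passed the filter on low counts mainly through ECs. These tests are therefore not read as support beyond the levels themselves. *Selplg* had the opposite placement, with 274, 260 and 261 CPM in immune cells and 4.39, 1.56 and 1.91 CPM in ECs (log2 difference -6.86, SE 0.31, adjusted p = 3.61e-11). That test is read in the same way, since most *Selplg* UMIs lay in immune cells. Epithelial cells gave 33 *Selplg* UMIs and stromal cells 24, and neither differed detectably from ECs (log2 differences 0.38, SE 0.66, adjusted p = 0.638, and 0.85, SE 0.71, adjusted p = 0.332). Without mouse 3 both of these passed the threshold (1.49, adjusted p = 0.0173, and 2.11, adjusted p = 0.00546). Of the 26 EC *Selplg* UMIs, however, 14 came from 2 arterial-like cells, 12 of them from a single cell of mouse 2. Both cells were marked as likely doublets, and the other arterial-like ECs gave 0 *Selplg* UMIs.

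Within ECs the 4 subtypes were compared in pairs. Of the 6 members, 4 passed the filter on low counts in these sums (*Icam1*, *Icam2*, *Vcam1* and *Selp*), and 4 of them were called between arterial- and venous-like ECs, where the background was 16% of 7715 genes. The counts were 3 for *Aplnr*-type against arterial-like (background 24.7%), 2 for *Aplnr*-type against *Car4*-type (17.1%), 4 for *Aplnr*-type against venous-like (23.2%), 4 for arterial-like against *Car4*-type (29.1%) and 4 for *Car4*-type against venous-like ECs (27.6%). With 4 genes tested these counts are read gene by gene.

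*Icam1* was highest in the venous-like ECs, at 210, 282 and 189 CPM. *Car4*-type ECs had 179, 173 and 113 CPM, arterial-like ECs 62.8, 53.8 and 76.1 CPM and *Aplnr*-type ECs 29.0, 41.0 and 27.5 CPM. None of the 4 subtypes overlapped, and the order held in each mouse. Venous-like ECs exceeded *Aplnr*-type ECs by a log2 difference of 2.98 in size (*Aplnr*-type minus venous-like -2.98, SE 0.19, edgeR adjusted p = 9.33e-13), and the 2 capillary subtypes differed by -2.34 (*Aplnr*-type minus *Car4*-type, SE 0.21, adjusted p = 1.6e-09). Arterial-like ECs lay below venous-like (-1.83, SE 0.20, adjusted p = 6.8e-08) and *Car4*-type ECs (-1.19, SE 0.22, adjusted p = 8.11e-05) and above *Aplnr*-type ECs (*Aplnr*-type minus arterial-like -1.15, SE 0.24, adjusted p = 0.000407). The smallest step, *Car4*-type minus venous-like, was -0.64 (SE 0.18, adjusted p = 0.00755), and it was lost with log-normalization for the clustering (adjusted p = 0.388) and without mouse 3 (adjusted p = 0.0889).

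*Icam2* had a different order. *Car4*-type ECs stood apart at 1286, 1159 and 1310 CPM. *Aplnr*-type ECs (607, 542 and 492 CPM) and arterial-like ECs (471, 573 and 599 CPM) overlapped, and their log2 difference was -0.11 (SE 0.12, edgeR adjusted p = 0.596). Venous-like ECs were the lowest at 364, 342 and 411 CPM. *Car4*-type ECs exceeded venous-like ECs by 1.65 (SE 0.13, adjusted p = 5.1e-11), *Aplnr*-type ECs by 1.22 in size (*Aplnr*-type minus *Car4*-type -1.22, SE 0.12, adjusted p = 1.3e-08) and arterial-like ECs by 1.11 in size (arterial-like minus *Car4*-type -1.11, adjusted p = 3.4e-08). The lower level of venous-like ECs against arterial-like ECs (0.54, SE 0.13, adjusted p = 0.00318) was lost without mouse 3 (adjusted p = 0.0823), and that against *Aplnr*-type ECs (0.43, SE 0.13, adjusted p = 0.0112) without mouse 2 (adjusted p = 0.130) or mouse 3 (adjusted p = 0.0918). The venous-like subtype was thus the highest of the 4 for *Icam1* and the lowest for *Icam2*.

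*Vcam1* was found, among the 4 named EC subtypes, mainly in the larger-vessel ones. Arterial-like ECs had 98.2, 234 and 160 CPM, and venous-like ECs 70.1, 117 and 51.9 CPM. *Aplnr*-type ECs had 0, 2.16 and 12.7 CPM, from 25 UMIs in 4 cells, 22 of them in a single cell of mouse 4 that was marked as a likely doublet. *Car4*-type ECs had no UMI in 93 cells. Arterial- and venous-like ECs overlapped, and both exceeded every *Aplnr*-type value. The log2 differences of *Aplnr*-type ECs were -4.93 against arterial-like (SE 0.43, edgeR adjusted p = 1.07e-09) and -3.91 against venous-like ECs (SE 0.51, adjusted p = 1.49e-06). With a mouse left out, the smallest in size were -4.37 and -3.30. No fold is given without mouse 4, because the *Aplnr*-type ECs of mice 2 and 3 gave 0 and 2 *Vcam1* UMIs. The pooled *Vcam1* level was 63.6-fold the floor of 3 UMIs over the pooled *Car4*-type ECs in arterial-like and 31.0-fold in venous-like ECs. These ratios leave out the spread of the mice and the counting error of the arterial- and venous-like UMIs. The difference between arterial- and venous-like ECs (1.02, SE 0.35, adjusted p = 0.0455) was lost under 7 of the alternatives, among them DESeq2 (adjusted p = 0.742), leaving out mouse 3 (adjusted p = 0.150) and leaving out mouse 4 (adjusted p = 0.119).

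*Selp* was highest in arterial-like ECs, at 58.9, 153 and 135 CPM. Venous-like ECs, from 23 UMIs, had 20.3, 16.7 and 16.5 CPM, and *Aplnr*-type and *Car4*-type ECs had none in 432 and 93 cells. Arterial- and venous-like ECs did not overlap, with mouse 2 the lowest of the arterial-like values, and differed by a log2 fold change of 2.66 (SE 0.36, edgeR adjusted p = 4.73e-06). *Selp* passed the filter on low counts only through the arterial-like sums, since the venous-like sums held 9, 7 and 7 UMIs. The test is therefore not read as support beyond the levels themselves. The pooled arterial-like level was 170-fold the floor of 3 UMIs over the pooled *Aplnr*-type ECs and 45.1-fold that over *Car4*-type ECs. The pooled venous-like level was 26.5-fold and 7.0-fold these floors. These ratios leave out the spread of the mice and the counting error of the arterial- and venous-like UMIs.

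**Figure D2:**
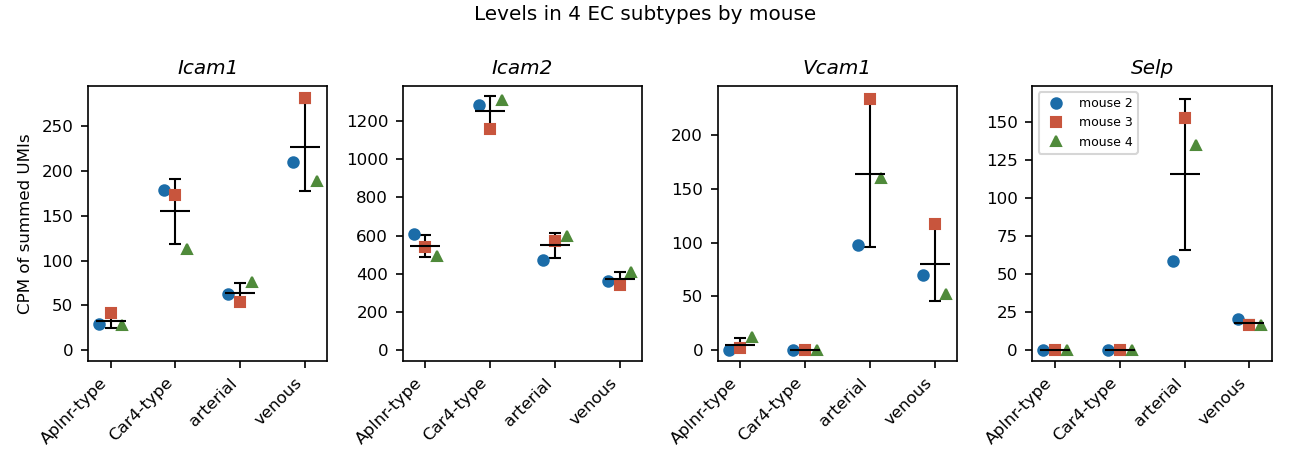
Level (CPM) of *Icam1*, *Icam2*, *Vcam1* and *Selp* in each mouse (points) for the 4 EC subtypes, with the bar at the mean ± SD of 3 mice and a panel with its own linear axis per gene. *Icam1* peaked in venous-like ECs (mean 227), *Icam2* in *Car4*-type ECs (1252), and *Vcam1* (164) and *Selp* (116) in arterial-like ECs.

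The arterial-like ECs were 2 sub-clusters that differed in 3 of these 4 members. The smaller, of 59 cells, was led by *Cytl1*, *Sfrp1*, *Mgp*, *Sulf1* and *Gkn3* and had *Selp* among its 10 leading genes by fold, so its values are given as a description with no test. It carried the arterial genes *Gja5* in 94.9% and *Bmx* in 91.5% of its cells. The venous genes *Slc6a2* and *Nr2f2* were found in none and in 8.47%, and the lymphatic gene *Prox1* in 1.69%. Shares of the other genes of these 3 marker lists are not given here. In the clustering of all cells, the arterial-like cluster had *Vwf* (venous list) and *Lyve1* (lymphatic list) among its 10 leading genes. *Selp* stood in the 59-cell sub-cluster at 144, 284 and 253 CPM (170 UMIs in 38 cells). It stood at 6.36, 12.8 and 0 CPM (5 UMIs) in the larger sub-cluster of 100 cells. *Vcam1* stood at 236, 380 and 289 CPM against 12.7, 77.0 and 12.2 CPM, and *Icam1* at 113, 92.1 and 121 CPM against 31.8, 12.8 and 24.5 CPM. The sub-clusters did not overlap for these 3 genes. *Icam2* overlapped, at 503, 624 and 546 CPM against 452, 518 and 660 CPM.

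With 6.16% of the ECs, the 59-cell sub-cluster held 72.6% of the EC *Selp* UMIs (170 of 234) and 53.1% of the EC *Vcam1* UMIs. Against the 23 *Selp* UMIs of the 108 venous-like ECs, it was the main source of *Selp* among ECs with a named subtype. The larger sub-cluster had *Lyz2* and *Sftpc*, genes of myeloid and AT2 cells, among its leading genes, and the summed level of the immune marker list there was 344, 4.28 and 65.2 CPM; the part of such RNA in its values was not tested. The summed platelet marker list was 0, 4.00 and 3.57 CPM in the 59-cell sub-cluster, against 23251, 47228 and 45536 CPM in platelet-like cells. A further 36 *Selp* UMIs came from 8 cells of a 23-cell sub-cluster without a name, led by the lymphatic genes *Ccl21a*, *Mmrn1* and *Prox1*. Of its cells, 12 were marked as likely doublets, and a single cell gave 18 of the *Selp* UMIs. This 23-cell sub-cluster also gave 32 *Vcam1* UMIs in 6 cells (50.7, 256 and 34.6 CPM, from 11, 7 and 5 cells).

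Within arterial-like ECs the cells with *Selp* were mostly cells with *Vcam1*. Both were detected in 35 cells, which were 81.4% of the 43 cells with *Selp* and 68.6% of the 51 with *Vcam1*. Of those 43 cells, 38 lay in the 59-cell sub-cluster, in which 66.1% of all cells had *Vcam1*. In venous-like ECs both were detected in 7 cells, 43.8% of the 16 with *Selp* and 18.9% of the 37 with *Vcam1*, while 14 of those 16 cells had *Icam1*. Of all 108 venous-like ECs, 34.3% had *Vcam1* and 76.9% had *Icam1*, so these pairs are a description only. The highest *Vcam1* count of any cell, 40 UMIs, was in an arterial-like EC of mouse 3.

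**Figure D3:**
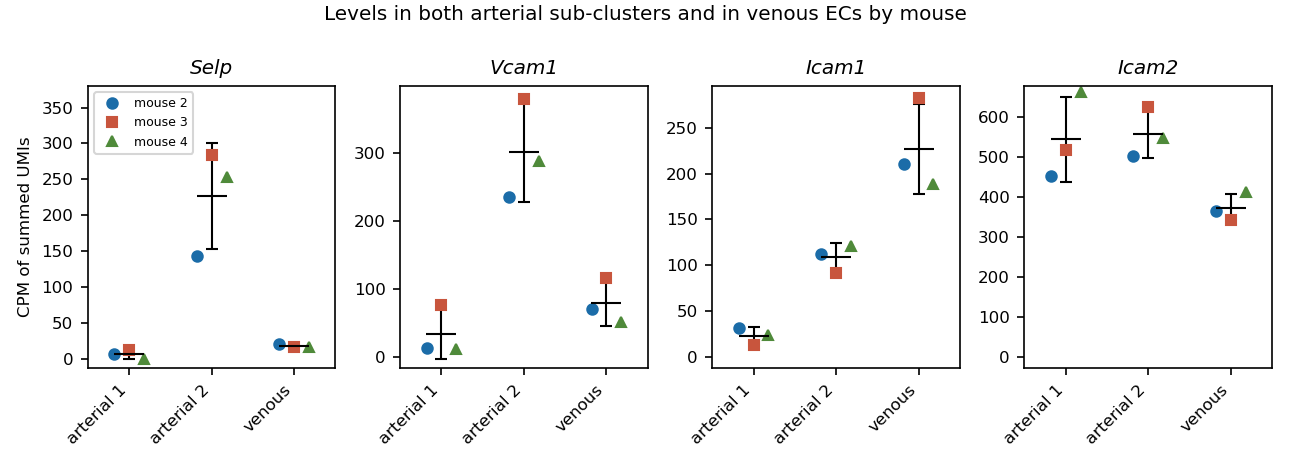
Level (CPM) of *Selp*, *Vcam1*, *Icam1* and *Icam2* by mouse (points, bar at the mean ± SD of 3 mice) in the larger (arterial 1) and smaller (arterial 2) arterial-like sub-clusters and in venous-like ECs. The 3 values of arterial 2 lie above those of arterial 1 for *Selp*, *Vcam1* and *Icam1*, and the *Icam2* values overlap.

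*Sele*, the selectin made by activated endothelium, gave no UMI in any named EC subtype. A count of 0 allows a share of up to 0.694% of *Aplnr*-type, 1.89% of arterial-like, 2.78% of venous-like and 3.23% of *Car4*-type ECs with a *Sele* UMI. Of the 14 UMIs in all cells, 10 lay in a single cell of mouse 2 that was marked as a likely doublet and belonged to the 23-cell EC sub-cluster described above, and the other 4 were single UMIs in 2 neutrophil-like cells, a B-cell-like cell and an unnamed cell. No test on *Sele* was possible at this depth, and its low count does not show that the gene was off.

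In the epithelium *Icam1* was the only member with enough counts to be tested. AT1-like cells, the thin gas-exchange cells, had 813, 598 and 729 CPM, AT2-like cells, which make surfactant, 126, 129 and 119 CPM, and club-like cells, secretory cells of the airway, 48.6, 24.1 and 45.9 CPM. The 3 types did not overlap. AT1-like cells were higher than the mean of the other 2 types by a log2 difference of 2.94 (SE 0.16, edgeR adjusted p = 1.98e-09, background 43.6% of 9302 genes). Club-like cells were lower (-2.50, adjusted p = 1.56e-07, background 45.2%), with 26 of their 106 UMIs in a single cell and a median of 788 UMIs per cell, and AT2-like cells missed the threshold (-0.43, adjusted p = 0.0590, background 43.9%) and passed it without TMM scaling (adjusted p = 0.0302) and with DESeq2 (adjusted p = 0.0172). AT1-like cells held 33.8% and AT2-like cells 36.0% of all *Icam1* UMIs in the lungs. AT1-like cells with the gene had a median of 17 *Icam1* UMIs and AT2-like cells 2.

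Of all 22 types, AT1-like cells had the highest *Icam1* level, followed by venous-like ECs, and neither overlapped its neighbour in the order. *Car4*-type ECs and AT2-like cells overlapped in the next 2 places, ahead of neutrophil-like and dendritic-like cells, which also overlapped. With 3 mice against 3, the exact permutation test cannot give a 2-sided p below 0.1, so the order rests on the ranges. The edgeR tests of types were made within a class, so steps between types of different classes were not tested with edgeR.

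In the stroma *Vcam1* and *Icam1* were tested in 5 types, each against the mean of the other 4. *Vcam1* was highest in the *Col13a1*-type fibroblast-like cells, at 371, 315 and 316 CPM. A stromal cluster high in *Dcn*, in which the cartilage genes *Col2a1*, *Col10a1* and *Acan* were also among the leading genes, had 125, 80.2 and 118 CPM, smooth-muscle-like cells 57.0, 32.1 and 45.3 CPM and myofibroblast-like cells 7.82, 5.41 and 5.27 CPM. Pericyte-like cells gave 1 UMI in all. The 4 types before pericyte-like cells did not overlap. *Col13a1*-type cells were higher (edgeR adjusted p = 1.67e-14), as were the *Dcn*-high cells (adjusted p = 1.35e-07), and pericyte-like cells were lower (adjusted p = 3.46e-06); fold changes are not given because the mean of the other types includes the single pericyte UMI. The higher level in smooth-muscle-like cells (adjusted p = 0.019) was lost without mouse 2 (adjusted p = 0.143) or mouse 4 (adjusted p = 0.172), and the lower level in myofibroblast-like cells (adjusted p = 0.0219) without mouse 3 (adjusted p = 0.999993) or mouse 4 (adjusted p = 0.0638).

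Members called numbered 1 of 2 in *Col13a1*-type cells (background 32.2% of 9722 genes), 2 of 2 in *Dcn*-high cells (27.6%), 2 of 2 in smooth-muscle-like cells (32.6%), 2 of 2 in myofibroblast-like cells (28.3%) and 1 of 2 in pericyte-like cells (31.2%). *Col13a1*-type cells held 45.7% of all *Vcam1* UMIs, more than all ECs together. *Icam1* had another order in the stroma, with 45.7, 25.2 and 25.2 CPM in *Dcn*-high cells (log2 difference 2.15, edgeR adjusted p = 3.33e-05) and 18.6, 19.8 and 22.5 CPM in myofibroblast-like cells (1.07, adjusted p = 0.00332, lost without mouse 4 with adjusted p = 0.110). Smooth-muscle-like cells, from 12 UMIs, were lower (-2.23, adjusted p = 0.000405). The type with the most *Vcam1* was near the mean of the others for *Icam1* (-0.02).

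Among the 22 types, *Vcam1* was highest in *Col13a1*-type fibroblast-like cells, which overlapped no other type. Arterial-like ECs, *Dcn*-high stromal cells, venous-like ECs, interstitial-macrophage-like cells and smooth-muscle-like cells followed, each overlapping the next.

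Immune cells were the main source of *Selplg*, whose product is the ligand of P-selectin, and 4 members (all but *Selp* and *Sele*, which had too few counts) were tested in 9 immune types over 7168 genes. Basophil-like cells (named from a list of basophil and mast cell genes) had 945, 752 and 711 CPM, NK-like cells 813, 704 and 782 CPM and neutrophil-like cells 448, 567 and 574 CPM. The 3 basophil-like values rest on 6, 25 and 13 cells. ILC2-like cells had 559, 495 and 456 CPM, T-cell-like cells 523, 516 and 470 CPM and dendritic-like cells 400, 428 and 420 CPM. Interstitial-macrophage-like cells had 246, 315 and 293 CPM, alveolar-macrophage-like cells 141, 179 and 150 CPM and B-cell-like cells 76.3, 81.0 and 68.3 CPM. Basophil- and NK-like cells overlapped at the top, neutrophil-, ILC2- and T-cell-like cells overlapped below them, and dendritic-like cells, the macrophage-like types of interstitium and alveoli and, last, B-cell-like cells each lay apart from the next.

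Mouse 2, with 6 basophil-like cells, was under the limit of 10 cells, so the level of this type in the tests rests on mice 3 and 4. Without mouse 3 or mouse 4, basophil-like cells left the fit and the mean of the other types. Against the mean of the other immune types, *Selplg* was higher in neutrophil-like (log2 difference 1.31, edgeR adjusted p = 6.77e-13), NK-like (1.12, adjusted p = 1.39e-10) and basophil-like cells (0.99, SE 0.16, adjusted p = 8.65e-06). It was lower in B-cell-like cells (-2.56, adjusted p = 8.1e-18), in alveolar-macrophage-like cells (-1.26, adjusted p = 5.64e-08, lost at clustering resolution 0.4 with adjusted p = 0.113) and in interstitial-macrophage-like cells (-0.58, adjusted p = 0.00249, lost without mouse 3 or mouse 4 with adjusted p = 0.0813 and 0.0982). T-cell-like (0.40, adjusted p = 0.00853) and ILC2-like cells (0.34, adjusted p = 0.0479) passed but were lost without mouse 2 (adjusted p = 0.0708 and 0.373), and dendritic-like cells did not pass (0.25, adjusted p = 0.0757) except with DESeq2 (adjusted p = 0.0332). Neutrophil-like cells had less *Selplg* by CPM than basophil-like cells and a larger fitted difference. Without the TMM scaling of library sizes their difference was 0.60 (adjusted p = 7.08e-06), that of basophil-like cells was 1.14 (adjusted p = 2.68e-07), and the median of all genes in the neutrophil-like contrast moved from -0.02 to -0.73. B-cell-like cells, the most numerous type at 1784 cells, were the only immune type whose *Selplg* lay below 100 CPM in all 3 mice.

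*Icam1* was higher in neutrophil-like cells (84.8, 90.5 and 95.7 CPM) than in the other immune types (edgeR adjusted p = 1.07e-09, and 1.66e-06 without TMM scaling). The values of dendritic-like cells, 44.5, 48.1 and 103 CPM, spread more, with mouse 4 above all neutrophil-like values, and their higher level (adjusted p = 0.00111) was lost without mouse 4 (adjusted p = 0.339). *Icam2* was highest of the immune types in B-cell-like cells, at 102, 104 and 92.8 CPM (adjusted p = 8.17e-14). NK-like cells came next with 69.3, 45.9 and 39.3 CPM (adjusted p = 0.00324, lost without mouse 2 with adjusted p = 0.0896). The NK-like call was also lost with no filter on cells (adjusted p = 0.121) and with a filter of 500 genes and 10% mitochondrial UMIs (0.0937). It was lost as well with marked doublets removed (0.147), with log-normalization (0.254) and at resolution 0.4 (0.0547). Dendritic-like cells, from 11 UMIs, were lower (adjusted p = 4.17e-05, lost with the 500-gene filter with adjusted p = 0.0736), and alveolar-macrophage-like cells gave 3 UMIs. Fold changes are not given for these, because the mean of the other types includes 3 *Icam1* UMIs in basophil-like and 3 *Icam2* UMIs in alveolar-macrophage-like cells.

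*Vcam1* in immune cells was found mainly in interstitial-macrophage-like cells, at 9.86, 165 and 58.6 CPM. The 31 UMIs came from 8 of 116 cells, 16 of them from a single cell, and the 3 mice differed widely. The type passed with edgeR (adjusted p = 1.73e-07) and not with DESeq2 (adjusted p = 0.333). It held 31 of the 33 immune *Vcam1* UMIs, so the gene passed the filter on low counts only through this type. The call is therefore counted below but not read as a result. Members called numbered 2 of 4 in neutrophil-like (background 54.8%), dendritic-like (37.5%), B-cell-like (49.1%), NK-like (31.5%), alveolar-macrophage-like (39.3%) and interstitial-macrophage-like cells (22.6%). They numbered 1 of 4 in basophil-like (16.6%), ILC2-like (20.8%) and T-cell-like cells (28.3%). In each of these 3 types the called member was *Selplg*.

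*Selp* outside ECs was sparse. Platelet-like cells, in which P-selectin is stored as protein, had 78.9, 95.4 and 171 CPM, but these were 8 UMIs in 4 of 31 cells, 5 of them in a single cell, and the range overlapped that of arterial-like ECs. Neutrophil-like cells had 16.2, 17.7 and 5.63 CPM from 15 UMIs in 15 cells, a range that overlapped that of venous-like ECs. B-cell-like cells gave 15 UMIs in 13 cells.

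The share of cells with at least 1 UMI depends on depth, so each share was set beside the share in a type not known for the gene and beside the share after cells had been thinned to 1000 UMIs. Cells with fewer UMIs were left out of the thinned shares, among them 30 of 166 AT1-like, 53 of 466 neutrophil-like, 32 of 210 *Col13a1*-type and 22 of 31 platelet-like cells and at most 3 cells of any EC subtype, so the thinned shares are over fewer cells than the full-depth ones. Intervals are exact binomial (Clopper-Pearson) 95% intervals and, like the floors, cover counting error only. *Icam1* was detected in 76.9% of venous-like ECs (67.8% to 84.4%), 74.1% of AT1-like, 73.6% of AT2-like and 59.1% of *Car4*-type cells. It was detected in 17.6% of myofibroblast-like cells, taken as the background type, whose median depth was 10667 UMIs against 16207 in AT2-like and 8800.5 in venous-like cells. At 1000 UMIs the shares were 46.6% ± 4.41 (SD, n = 3) in AT1-like, 20.1% ± 4.49 in venous-like, 15.6% ± 5.49 in *Car4*-type, 11.2% ± 0.354 in AT2-like, 8.75% ± 1.48 in neutrophil-like and 2.01% ± 0.133 in myofibroblast-like cells. The near-equal shares of AT1- and AT2-like cells at full depth thus were apart in the thinned cells.

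*Icam2* was detected in all 93 *Car4*-type ECs, in 96.5% of *Aplnr*-type, 90.6% of arterial-like, 88.9% of venous-like and 33.6% of B-cell-like cells, against 1.33% of AT2-like cells as background. Thinning left 73.4% ± 1.55 of *Car4*-type ECs with a UMI, and 31.3% of venous-like, 9.79% of B-cell-like and 0.0858% of AT2-like cells. *Vcam1* was detected in 70.5% of *Col13a1*-type, 51% of *Dcn*-high, 34.3% of venous-like, 33.4% of smooth-muscle-like and 32.1% of arterial-like cells. It was detected in 0 of 1784 B-cell-like cells, for which the floor of 3 cells is a share of 0.168%. The thinned *Vcam1* shares were 27.1% ± 2.22 in *Col13a1*-type, 10.2% ± 4.91 in arterial-like and 7.46% ± 2.23 in venous-like cells, and the last 2 overlap within their SD.

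*Selp* was detected in 27.0% of arterial-like ECs, 14.8% of venous-like ECs, 12.9% of platelet-like and 3.22% of neutrophil-like cells, against 0.729% of B-cell-like cells as background (median depths 7055, 8800.5, 2127 and 3960.5 UMIs for arterial-like, venous-like, neutrophil-like and B-cell-like cells). After thinning the shares were 7.58% ± 3.67 in arterial-like, 1.75% ± 0.743 in venous-like, 1.68% in neutrophil-like and 0.211% in B-cell-like cells. Platelet-like cells, with a median depth of 711 UMIs, stood higher at 13.2% ± 5.70 after thinning. That share rests on the 9 of 31 cells that were left, and its range over the mice overlapped that of arterial-like ECs. *Selplg* was detected in 98.7% of NK-like, 97.0% of ILC2-like, 88.6% of basophil-like, 86.2% of T-cell-like and 63.7% of neutrophil-like cells, against 1.24% of AT2-like cells as background. The lower share of neutrophil-like cells went with their lower depth, and at 1000 UMIs they stood at 42.9%, near ILC2-like (40.8%) and T-cell-like (38.3%) cells, with NK-like (55.3% ± 1.80) and basophil-like cells (56.3% ± 9.27) above.

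**Figure D4:**
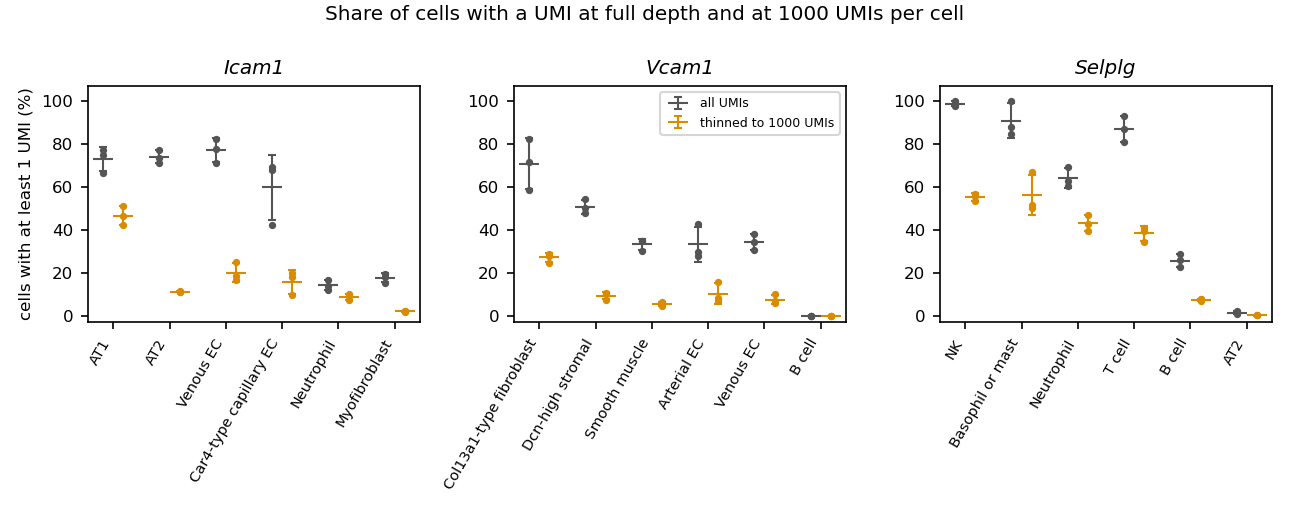
Share of cells (percent, mean ± SD of 3 mice) with at least 1 UMI of *Icam1*, *Vcam1* and *Selplg* in selected types at full depth and after thinning to 1000 UMIs, with cells under that number left out of the thinned shares. Thinning lowered *Icam1* in AT2-like cells to 11.2% and left AT1-like cells at 46.6%, and lowered *Selplg* in NK-like cells to 55.3% and in neutrophil-like cells to 42.9%.

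The other genes of these adhesion steps were taken from 5 lists, of which 47 of 48 symbols were found. Between ECs and immune cells 69.4% of the 14213 genes tested were called, 4840 higher and 5021 lower in ECs, and the list counts are read beside that. Of the lists, 2 of 12 leukocyte receptor genes were higher in ECs and 10 lower. The 3 tested of 8 other vessel ligands (*Cd34*, *Podxl* and *Emcn*) were higher in ECs against each of the 3 classes, and 4 of 9 selectin-ligand enzymes were higher and 4 lower in ECs than in immune cells. The medians of the 3 lists in that comparison were -5.65, 7.92 and 0.14 (log2), beside -0.02 over all genes tested. Of the junction genes that line the exit route, 5 of 6 were higher in ECs than in immune cells, and of 11 cytokine signal genes 3 were higher and 8 lower (medians 4.71 and -2.04).

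*Itgal*, the LFA-1 chain that binds ICAMs, stood at 838, 914 and 683 CPM in interstitial-macrophage-like and 489, 511 and 605 CPM in neutrophil-like cells, with 1 UMI in all venous-like ECs. *Itgb1*, the other VLA-4 chain, was higher in ECs than in immune cells (2.54, SE 0.08, edgeR adjusted p = 1.16e-12). *Itga4*, the VLA-4 chain that binds VCAM-1, stood at 554, 654 and 644 CPM in NK-like and 314, 360 and 388 CPM in B-cell-like cells, and outside the immune types at 382, 277 and 279 CPM in pericyte-like and 262, 218 and 299 CPM in smooth-muscle-like cells. *Car4*-type ECs, which had no *Vcam1* UMI, had 58.0, 95.4 and 127 CPM of *Itga4*, against 16.0, 24.8 and 14.9 CPM in *Aplnr*-type ECs (*Aplnr*-type minus *Car4*-type -2.41, SE 0.29, edgeR adjusted p = 5.21e-07). In neutrophil-like cells 8 of the 12 receptor genes were higher and 2 lower than in the other immune types (median log2 difference 1.72), where 2284 of all 7168 genes tested were higher and 1645 lower (median -0.02); without TMM scaling the receptor counts were 7 and 2.

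Of the 7 tested of 10 enzymes that build selectin ligands, 4 were higher and 1 lower in neutrophil-like cells than in the other immune types (median 1.61, beside -0.02 over all genes), and 2 were higher and 0 lower in basophil-like cells (median 0.56, beside -0.13). *Fut7* and *Gcnt1* are described here, chosen after their values were seen. *Fut7*, which adds the terminal fucose, stood at 118, 116 and 132 CPM in basophil-like cells (edgeR adjusted p = 1.2e-07, with basophil-like sums of mice 3 and 4 only). It gave 5 UMIs in all neutrophil-like cells, in which *Selplg* was 448 to 574 CPM and the median depth 2127 UMIs. *Fut7* in neutrophil-like cells did not differ detectably from the other immune types (edgeR adjusted p = 0.991). *Gcnt1*, which builds the branched sugar core, was also higher in basophil-like cells (157, 193 and 132 CPM) and in neutrophil-like cells (32.3, 78.7 and 39.4 CPM) than in the other immune types (adjusted p = 2.02e-06, with basophil-like sums of mice 3 and 4 only, and 5.89e-07). Among ECs *Gcnt1* stood at 53.0, 78.6 and 74.2 CPM in arterial-like and 18.1, 26.3 and 23.6 CPM in venous-like cells (1.58, SE 0.34, adjusted p = 0.00101) and gave 2 UMIs in *Aplnr*-type ECs. The *Gcnt1* level of *Car4*-type ECs is not given here, so its order over the EC subtypes is not set beside that of *Selp*. Of the 6 enzymes tested between arterial- and venous-like ECs, 2 were higher and 2 lower in arterial-like ECs (median 0.008). Over all 7715 genes, 581 were higher and 652 lower (median 0.006).

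*Cd34*, a glycoprotein of the vessel surface, followed *Icam2* in its highest subtype, with 1391, 1486 and 1780 CPM in *Car4*-type ECs and 964, 924 and 770 CPM in *Aplnr*-type ECs (-0.83, SE 0.14, edgeR adjusted p = 6.55e-05). *Il1r1*, the receptor of interleukin-1, followed *Icam1* in its highest subtype, with 52.0, 57.4 and 56.6 CPM in venous-like ECs and 8.28, 10.8 and 13.2 CPM in *Aplnr*-type ECs (*Aplnr*-type minus venous-like -2.46, SE 0.27, adjusted p = 5.1e-08). Venous-like ECs also exceeded arterial-like (-1.15, adjusted p = 0.00443) and *Car4*-type ECs (-1.11, adjusted p = 0.00482) for *Il1r1*. Of the 6 cytokine signal genes tested in ECs, 2 were lower and 0 higher in *Aplnr*-type than in venous-like ECs (background 23.2%). Against venous-like ECs, 1 was higher and 1 lower in arterial-like ECs (background 16%), as in *Car4*-type ECs (background 27.6%). The other 4 were not called in each comparison. In neutrophil-like cells, 8 of 10 cytokine signal genes tested were higher than in the other immune types, and 6 of 10 without TMM scaling, beside the 2284 of 7168 of all genes (54.8% called in either direction). *Madcam1*, *Ackr1* and *Chst4*, genes of venules and lymph node vessels, had no UMI in the 4 EC subtypes.

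Across the 22 types, the gene whose level was most like that of each member, by Pearson's r of log2(CPM + 10) over 13718 genes, was *Limk2* for *Icam1* (r = 0.79), *Cd38* for *Icam2* (0.92), *F830016B08Rik* for *Vcam1* (0.96), *Exoc6* for *Selp* (0.81) and *Ccdc88b* for *Selplg* (0.98). *Tspan8*, *S1pr1*, *Tmem119*, *Fmo5* and *Fmnl1* came second, with r = 0.77, 0.91, 0.92, 0.80 and 0.97. Between the members themselves r ran from -0.32 to 0.30. These are descriptions over 22 types that share the same 3 libraries and differ in depth, and *Sele*, with fewer than 100 UMIs, was left out.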

How the data were processed

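Single-cell suspensions of 3 whole lungs were profiled with 10x Chromium 3′ v3 chemistry, 16000 cells loaded per library per the labels. The authors processed the reads with Cell Ranger 3.0.2 on build mm10 (per the submitters' notes) and deposited a matrix of UMI counts per gene and barcode for each mouse. The unit is raw counts, not normalized. Ambient RNA removal and multimapping rules are not given in the sources used here, and free RNA adds low counts to all types.

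From these counts, barcodes showing 200 or more genes, with mitochondrial UMIs no higher than 20%, entered the analysis. Cells of the 3 mice were clustered together (Seurat 5.3.0, SCTransform with sctransform 0.4.2, 30 principal components, Louvain resolution 0.8), with the 6 members and *Dll4* kept out of the variable genes, and ECs were clustered again (20 components). A cluster took the name of the marker list with the highest mean log2 fold (at least 1, with 20 CPM added) if at least 3 markers were in 10% of its cells. The naming thresholds were chosen with the clusters in view, and EC sub-clusters under 30 cells were left unnamed. Scrublet in scanpy 1.11.5 marked under 0.5% of the barcodes by its automatic threshold (11, 1 and 15), so the top scores at 0.8% per 1000 cells were marked instead (74, 79 and 97). Marked cells were kept and left out in an alternative.

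Counts were summed per mouse and type (at least 10 cells in at least 2 mice) and tested with edgeR 4.0.16 (TMM, filterByExpr, quasi-likelihood F test, Benjamini-Hochberg, threshold 0.05; R 4.3.3). EC subtypes shared a fit, as did the classes and the types of each class, where a type was compared with the mean of the others. The scripts were tested on simulated data. The same 3 mice give the samples of every type, except that basophil-like cells lack mouse 2 in the fit, so the mouse pairs them. Deviations of samples from the same mouse correlated at 0.0464 to 0.188 between classes (median 0.107) and at 0.0395 to 0.194 between EC subtypes (median 0.102). A fit with a mouse block served as an alternative.

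The 6 genes, the pathway and marker lists and the comparisons were chosen with earlier results of these data known. Every member is named wherever it was counted. Other genes are named from the lists for their role as receptor, enzyme or signal of a member, after their values were seen, and the most alike genes are those with the highest 2 correlations among genes with at least 100 UMIs. No fold is given against a type with 1 to 3 UMIs or against a mean that includes it, and a type with none was given a floor of 3 UMIs over the pooled group. Alternatives were other cell filters, resolutions 0.4 and 1.2, log-normalization, members among the variable genes, doublets removed, no TMM, no low-count filter, DESeq2 1.42.0, thinning to 1000 or 2000 UMIs and leaving out each mouse.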

Additional observations from a re-analysis of the deposited data

How the results depend on the processing

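The 63 log2 fold changes of members were recomputed 865 times, of which 810 stayed in direction and in call, 44 lost the call, 6 gained it and 5 reversed. The reversed values were not called in either fit. *Selplg* in ECs against epithelial cells was -0.37 with marked doublets removed and -0.46 without mouse 2 (-0.46 to 1.49 with each mouse left out), and against stromal cells -0.53 and -0.083 (-0.083 to 2.11). *Icam2* in *Aplnr*-type against arterial-like ECs was 0.046 without mouse 4 (-0.29 to 0.046).

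The number of members called in ECs against stromal cells became 5 with no filter on low counts and 3 to 5 with a mouse left out, and that between arterial- and venous-like ECs 2 to 4, the 2 without mouse 3. Calls over the immune types fell from 15 to 8 when cells needed 500 genes and no more than 10% mitochondrial UMIs, and to 7 at resolution 0.4. The share of all genes called under each of these settings is not given here. The changes in these counts are therefore not read as results about the members. The *Icam2* level in *Car4*-type ECs was 1629 CPM with log-normalization.

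Mean shares of cells over the 3 mice moved most with thinning to 1000 and 2000 UMIs, to 20.1% and 36.2% for *Icam1* in venous-like ECs (77.1% unthinned), 73.4% and 91.5% for *Icam2* in *Car4*-type ECs (100%), 27.1% and 48.0% for *Vcam1* in *Col13a1*-type cells (70.9%), 7.58% and 13.9% for *Selp* in arterial-like ECs (28.2%) and 55.3% and 77.4% for *Selplg* in NK-like cells (98.8%). *Icam1* in venous-like ECs was 85.5% and *Icam2* in *Car4*-type ECs 92.9% with the 500-gene filter. *Icam2* in *Car4*-type ECs was 75.7% with no filter on cells, 71.9% with log-normalization and 78.1% at resolution 1.2, and *Selplg* in NK-like cells 93.0% at resolution 0.4. Apart from thinning, which lowers shares by its construction, the cause was not tested.

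With the mouse as a block, *Vcam1* in ECs against stromal cells passed (-0.71, edgeR adjusted p = 0.0109), and the block changed no other call of a member. Depth limits *Sele* and the immune *Vcam1* and *Selp* values, which rest on 31 or fewer UMIs per type, and with 3 mice of a single group no statement reaches beyond cell types of these lungs.

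Without TMM scaling the median log2 difference of all genes moved most in the neutrophil-like contrast (-0.02 to -0.73, with the share of calls that were higher moving from 58.1% to 32.1%), in ECs against epithelial cells (0.04 to 0.52, 50.7% to 70.7%), in AT1-like cells (-0.07 to 0.30, 47.6% to 78.4%) and in club-like cells (0.02 to -0.32, 53.1% to 29.2%). The 58 member differences called kept their direction without TMM scaling and with DESeq2, 0 lost the call without TMM scaling, and 2 lost it with DESeq2 (*Vcam1* between arterial- and venous-like ECs and in interstitial-macrophage-like cells).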

Other observations

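Unnamed clusters also held members. The largest set was in 137 dividing cells led by *Top2a* and *Mki67*, with 341 *Icam2*, 119 *Selplg*, 113 *Icam1* and 10 *Vcam1* UMIs. A cluster of 454 low-UMI barcodes with *Hpgd*, *Sox7* and *Epas1* among its leading genes held 22 *Icam2* UMIs. The 166 ECs without a subtype gave 36 *Selp* and 44 *Vcam1* UMIs.

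*Vcam1* was highest in mouse 3 in arterial-like ECs (234 CPM), venous-like ECs (117 CPM) and interstitial-macrophage-like cells (165 CPM), and not in *Col13a1*-type fibroblast-like cells (371, 315 and 316 CPM for mice 2, 3 and 4). This is a description of 1 mouse.

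Of the genes annotated on the opposite strand of the members, *Gm47079* across *Icam1* is not among the features and was not measured here. The others gave few UMIs in all cells, 0 for *Gm43109* across *Vcam1*, and 10 for *Gm16587* and 16 for *Gm16548* across *Selp*.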
